A study of Drosophila melanogaster with 6 samples.

Results

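The ovary of *Drosophila melanogaster* was compared between females starved for 5 days and fed females, nucleus by nucleus. The nuclei were those of 10 clusters that the deposited annotation names as ovary, numbered 4, 5, 6, 7, 11, 14, 18, 19, 21 and 24. They came to 12573 of the 43027 nuclei in all 6 libraries, and to 7335 of 27944 in the 4 libraries compared. The series measured RNA in single nuclei of whole female bodies without heads, sorted with a DNA dye and captured on 10X Genomics droplets, which count each RNA molecule once by its unique molecular identifier (UMI). It held 2 fed libraries, 2 starved for 2 days and 2 starved for 5 days. All flies carried PromE-gal4, which drives Gal4 in oenocytes, and Tub-gal80ts, a temperature-sensitive inhibitor of Gal4. They were adult females collected within 48 h, kept 48 h more at 18 °C and then held at 29 °C. The time at 29 °C was 7 days in one part of the labels and 5 days in another, so the exact age of the flies was not settled. The starved flies lived on a medium with ions and trace metals whose only calories came from acetic acid. The labels did not say whether the 2 libraries of a group came from separate flies, so every p-value below measures the spread between libraries, which may be technical.

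Ovarian follicles develop in strings, from a stem cell niche at the tip to the mature egg. Each holds an oocyte and its sister nurse cells, which make the oocyte's RNA and proteins, within a layer of somatic follicle cells. The follicle cells divide under the homeodomain factor Cut and switch to DNA replication without division when Notch is activated by Delta from the germline. Follicle cells later make yolk protein and at the end secrete the vitelline membrane and the chorion. The passage from early to yolk-laying follicles is known to depend on food, insulin and ecdysone, and well-developed follicles are known to be removed by cell death when flies are starved of protein.

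A library gave 2985 and 2870 ovary nuclei in the fed flies and 693 and 787 in the day 5 flies. These were 29.7% and 28.4% of the fed nuclei and 18.4% and 19.6% of the day 5 nuclei. Total UMIs were 22940645 and 21311943 in the fed libraries and 7562487 and 7735450 in the day 5 libraries, but the median UMIs per ovary nucleus lay close together, at 1716 and 1709 in the fed and 1618 and 1582 in the day 5 libraries. Among all ovary nuclei 93 (0.74%) carried a barcode that another library also held. Doublets were not called here, because the deposited table was already filtered.

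The cluster names were checked against marker genes, as summed UMIs of a marker list per 10000 UMIs of the cluster, in the order fed replicate 1, fed replicate 2, day 5 replicate 1, day 5 replicate 2 used throughout. Clusters 4, 5 and 14, all named follicle cell, held the 10 follicle markers at 84.9, 85.8, 76.3 and 80, at 81.3, 79.9, 69 and 67.5, and at 89.2, 77.7, 101 and 98.3, against 42, 40.2, 16.7 and 17.5 in nuclei outside the ovary. Cluster 6, named germline, and cluster 7, named only ovary cell, held the 10 germline markers at 50.5, 44, 46.5 and 52.8 and at 47.3, 43.4, 79.7 and 69.4, against 2.66, 2.85, 1.63 and 1.65 outside the ovary. Most of the sum in cluster 7 came from 1 of these markers, the mitotic cyclin gene *CycB*, at 29.7, 26.4, 56.3 and 47. In cluster 11, named female germline, the germline sum was lower, between 16.4 and 18.4. There the follicle markers summed to 21.1, 19.45, 9.425 and 7.77 and the muscle markers to 18.05, 20.5, 12.6 and 7.19. The follicle sum thus lay above the germline sum in the fed libraries and below it at day 5. The follicle list includes the eggshell and yolk genes *Vm26Aa*, *Cp36* and *Yp1*, and its sum fell outside the ovary too. The part of RNA from other cells in these sums was not tested. Clusters 18 and 21 are named as germline too, but their leading marker list was muscle: its 6 genes summed to between 219 and 265 in cluster 18 and between 343 and 434 in cluster 21, while the germline markers summed to at most 5.66 in cluster 18 and to 17.5, 24.1, 27.8 and 14.1 in cluster 21. These clusters are therefore called by number. So is cluster 19, named stalk follicle cell: its 5 stalk and polar markers summed to 42.9 and 49.7 in the fed libraries, and to 33.4 and 81.1 at day 5, against 61.3, 57.7, 83.7 and 80.9 in cluster 14, while its follicle markers summed to 174, 174, 67.2 and 102. Cluster 24, named oviduct, held the 4 oviduct markers at 92.2, 66.2, 64.6 and 85.8, above every other ovary cluster.

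The follicle clusters 5 and 14 and the oviduct cluster 24 took larger shares of the ovary nuclei at day 5, and clusters 6, 7, 18, 19 and 21 smaller ones. Of the 10 clusters 8 (80%) changed their share of ovary nuclei past the threshold of 0.05 on the adjusted p, 3 upward (30%) and 5 downward (50%), in a limma fit of the log2 shares. Cluster 14, which the annotation places at stage 9 and later, took 3.58% and 3.34% of ovary nuclei in the fed flies and 13.9% and 11.9% at day 5, a 3.72-fold rise (log2 difference 1.89 ± 0.11 SE, adjusted p = 0.000218). It held 107 and 96 captured nuclei in the fed libraries and 96 and 94 at day 5, where whole libraries held 10059 and 10091 and then 3776 and 4018. Cluster 5 went from 19.6% and 20.3% to 30.6% and 31.5%, a 1.56-fold rise (adjusted p = 0.00202). The oviduct cluster 24 took 0.771% and 0.871% in the fed and 2.45% and 2.03% in the day 5 libraries, a 2.75-fold rise (adjusted p = 0.00381).

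Clusters 6 and 7 were the largest of those that fell. Cluster 6 held 18.6% and 18.1% of ovary nuclei in the fed flies and 10.7% and 9.53% at day 5 (log2 difference -0.85 ± 0.11, adjusted p = 0.00202). Cluster 7 held 16.1% and 14.7% and then 5.48% and 7.37% (log2 difference -1.26 ± 0.16, adjusted p = 0.00202). Cluster 18 fell from 4.12% and 3.62% to 2.31% and 2.29% (adjusted p = 0.00264). Cluster 19 went from 3.92% and 3.69% to 1.73% and 0.508% (log2 difference -1.91 ± 0.55, adjusted p = 0.025) and cluster 21 from 2.78% and 2.44% to 0.866% and 1.52% (log2 difference -1.10 ± 0.27, adjusted p = 0.0152). The day 5 libraries held 12 and 4 nuclei of cluster 19 and 6 and 12 of cluster 21, and the call of both was lost when a fed library was left out (adjusted p = 0.105 without fed replicate 1 and 0.094 without fed replicate 2 for cluster 19, 0.0876 and 0.0556 for cluster 21). The size of the fall in cluster 19 also rested on single libraries, at -2.74 without day 5 replicate 1 and -1.08 without day 5 replicate 2.

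Clusters 4 and 11 did not pass. Cluster 4 held 21.3%, 22.5%, 21.8% and 25.7% of ovary nuclei (adjusted p = 0.403) and cluster 11 held 9.15%, 10.5%, 10.2% and 7.62% (adjusted p = 0.5). For cluster 11 this rested on 1 library, since without day 5 replicate 1 the log2 difference was -0.35 with an adjusted p of 0.0256. Shares sum to the whole, so a cluster can rise because others fell. Taken over all nuclei of a library instead, cluster 14 still rose (log2 difference 1.28, adjusted p = 0.00036) and so did cluster 24 (0.84, adjusted p = 0.0136). On that scale cluster 4 fell (log2 difference -0.50, adjusted p = 0.0188), cluster 11 fell (-0.75, adjusted p = 0.0073) and cluster 5 did not pass (0.02, adjusted p = 0.856). The clusters were drawn from the same RNA that starvation changed, so a smaller cluster may hold fewer cells of a kind or cells that moved to another cluster, which cannot be told apart. Likewise, within a cluster, fewer nuclei of a stage and less RNA of a gene per nucleus cannot be told apart.

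**Figure D1:**
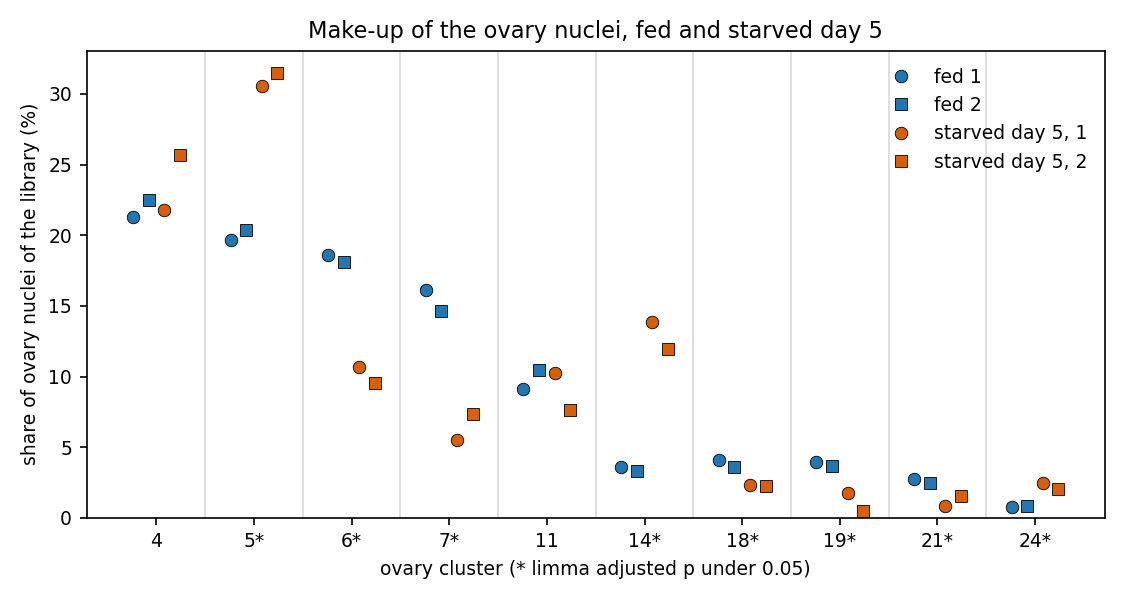
Share of ovary nuclei (percent) in each of the 10 ovary clusters, 1 point per library, for the fed and day 5 libraries. Cluster 14 went from 3.58% and 3.34% to 13.9% and 11.9%, while clusters 6 and 7 went below their fed values in both day 5 libraries.

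RNA of the main eggshell genes was at or near 0 at day 5 in clusters 4, 5, 14 and 19. *Vm34Ca* (2L:13411141-13411631, minus strand), which encodes a vitelline membrane protein, stood at 15.4 and 13.2 UMIs per 10000 in the fed libraries of cluster 4 and at 0 in both day 5 libraries, at least 271-fold lower when 3 UMIs over the group stand for the 0. In cluster 5 it was at 9.76 and 9.12 and then 0 and 0 (at least 217-fold lower), and in cluster 14 at 4.42 and 4.29 and then 0 and 0 (at least 58.8-fold lower). *Vm26Aa* (2L:5959596-5960340, minus strand), another vitelline membrane gene, was at 10.5 and 9.7 and then 0 and 0 in cluster 4, at least 191-fold lower. Cluster 19 held the most *Vm34Ca* of these clusters in the fed flies, 124 and 142, and held 0 and 0 at day 5, at least 166-fold lower. The fed and day 5 libraries did not overlap for any of these. Nuclei outside the ovary held *Vm34Ca* at 7.29 and 7.28 in the fed and 0.0082 and 0.0081 in the day 5 libraries, so the fed level of cluster 14 lay below that outside the ovary.

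The chorion genes behaved alike. *Cp36* (X:8479319-8480523, plus strand), of the chorion gene cluster on the X chromosome, stood at 3.86 and 3.8 in fed cluster 4 and 0 and 0 at day 5, at least 72.4-fold lower. *Cp15* (3L:8728481-8729066, plus strand), of the cluster on the third chromosome, was at 16 and 13.5 in fed cluster 5 and 0 and 0.0815 at day 5, a 340-fold difference with a 95% counting interval of 116 to 1650. All 9 chorion genes fell in clusters 4, 5 and 6, 7 of 9 fell in cluster 7, 6 of 9 in cluster 11 and 6 of the 6 tested in cluster 14. Over all tested genes, 10.5% fell in cluster 4, 12.1% in cluster 5, 11.5% in cluster 6, 0.93% in cluster 7, 1.81% in cluster 11 and 7.73% in cluster 14. Free RNA from lysed cells can reach any droplet, and chorion RNA was as high in nuclei outside the ovary as in cluster 4. The 9 genes summed to 24.3 and 22.8 UMIs per 10000 in fed cluster 4 and to 37.4 and 31.7 in fed nuclei outside the ovary. In fed cluster 19 the sum was 132 and 124. None of the 9 falls in cluster 4 and 5 of the 9 in cluster 5 were in genes at least as high there as over all nuclei.

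The vitelline list stood apart from that background in cluster 4. Its 16 genes summed to 66.2 and 58.5 in fed cluster 4 and to 19.8 and 20 outside the ovary, and at day 5 to 5.31 and 6.01 in the cluster and to 0.509 and 0.555 outside. Of these 16, 13 fell in cluster 4, 9 of them in genes at least as high there as over all nuclei, 12 fell in cluster 5 and 6 of 8 tested in cluster 14, and none rose. Of those falls 1 in cluster 5 and 0 in cluster 14 were in genes at least as high there as over all nuclei, and the fed sum of cluster 14, 16.9 and 14.3, lay below the 19.8 and 20 outside the ovary. In cluster 19 the sum went from 306 and 328 to 8.73 and 15.1. Yolk genes fell as well. *Yp1*, a yolk protein gene of follicle cells and fat body, went from 14.1 and 14 to 0.996 and 1.13 in cluster 4 (log2 change -3.70 ± 0.09, adjusted p = 1.12e-07) and *Yp2* from 14.9 and 14 to 0.332 and 0.429 (log2 change -5.19 ± 0.12, adjusted p = 1.12e-07). Outside the ovary *Yp1* went from a mean of 14 to 2.8. Of 8 tested genes of yolk and lipid uptake, 6 fell and 1 rose in cluster 4, where 10.5% and 7.08% of all tested genes did so. Of these calls 3 were in genes at least as high there as over all nuclei. *yl*, the yolk protein receptor (log2 change -1.93), and *Lsd-2*, which coats lipid droplets (-1.83), fell in cluster 4 too, and *LpR2*, a lipophorin receptor, rose (log2 change 0.61 ± 0.11, adjusted p = 0.00707). The call for *LpR2* was lost without 1 of the libraries (highest adjusted p = 0.0748).

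Cluster 4 changed in 1320 of 7500 tested genes (17.6%), 531 upward and 789 downward. With either fed library left out the number was 490 or 508, and with either day 5 library left out 2679 or 2939. Below, genes with their own log2 change in cluster 4, 5 or 14 stayed called whichever library was left out, unless stated otherwise. Genes named only as members of a counted list need not have stayed called. All called genes in every cluster had day 5 libraries that lay wholly on one side of the fed libraries, as did 56.1% of all tested genes in cluster 4, 57.1% in cluster 5, 59.1% in cluster 6, 43.5% in cluster 7, 47.8% in cluster 11 and 53.3% in cluster 14. The median nucleus of cluster 4 was smaller at day 5, with 2320 and 2217 UMIs in the fed and 1473 and 1524 in the day 5 libraries, and its part in the changes below was tested only by dropping the largest nuclei, the 10% with most UMIs.

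Among genes that rose in cluster 4, several encode adhesion, matrix or guidance proteins. *tutl*, an immunoglobulin-family adhesion gene, went from 0.453 and 0.31 to 4.44 and 5.09 UMIs per 10000 (log2 change 3.66 ± 0.20, adjusted p = 1.22e-05). *CadN*, N-cadherin, went from 2.76 and 4.12 to 16.4 and 18.6 (log2 change 2.37 ± 0.16, adjusted p = 4.22e-05). *Mp*, a collagen of basement membranes, went from 4.67 and 5.05 to 20.3 and 22.6 (log2 change 2.14 ± 0.08, adjusted p = 7.67e-07). All were several times higher in both day 5 libraries than in either fed one. *robo2*, a receptor for the guidance cue Slit, went from 1.04 and 1.22 to 5.44 and 4.91 (log2 change 2.20), and *vkg*, a chain of collagen IV, rose less (0.96). *Fs*, follistatin, which binds TGF-beta ligands, went from 2.77 and 2.4 to 9.59 and 9.84 (log2 change 1.91).

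*ct*, *stg* and *E(spl)m3-HLH* rose in cluster 4 as well. *ct*, which encodes Cut, went from 3.99 and 3.93 to 16.7 and 15.8 (log2 change 2.03 ± 0.08, adjusted p = 1.18e-06). *stg*, the Cdc25 phosphatase that drives mitosis, went from 0.774 and 0.842 to 2.53 and 2.12 (log2 change 1.53 ± 0.15), but of 33 tested genes of the list cell cycle and endocycle 3 rose and 3 fell, with a median of -0.13 against -0.12 over all tested genes. *E(spl)m3-HLH*, a Notch target, went from 0.74 and 0.585 to 2.28 and 2.21 (log2 change 1.78 ± 0.15). The levels of *ct* and *stg* at day 5 stayed below those of cluster 5, where *ct* was at 48.2 and 47.8 and *stg* at 15.1 and 16.3 in the fed flies. Of all tested genes in cluster 4, 7.08% rose and 10.5% fell. Of 27 tested genes of follicle cell signalling and fate, 9 rose (*N*, *ct*, *br*, *eya*, *Fas3*, *Stat92E*, *Socs36E*, *kek1* and *bun*) and 3 fell (*ttk*, *jing* and *Mmp2*), with a median log2 change of 0.21 against -0.12 over all tested genes. *Socs36E*, an inhibitor and target of JAK/STAT signalling, rose by 0.98, *eya* by 1.11 and *N*, the Notch receptor, by 0.46 on the log2 scale. On the mean of the deposited values the same list was counted as 7 higher and 10 lower. *hid*, an inducer of cell death, went from 1.06 and 1.48 to 4.61 and 4.6 (log2 change 1.88 ± 0.15, adjusted p = 9.33e-05).

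Apart from eggshell and yolk genes, several genes fell in cluster 4 to a fraction of their fed level. *bond*, a fatty acid elongase, went from 5.37 and 4.28 to 0.249 and 0.429 (log2 change -3.79 ± 0.24, adjusted p = 2.27e-05). *Hr4*, a nuclear receptor induced by ecdysone, went from 4.87 and 3.84 to 0.498 and 0.215 (log2 change -3.65 ± 0.33, and -3.06 without day 5 replicate 2). *Eip74EF*, an ecdysone-induced transcription factor, went from 4.85 and 5.36 to 0.664 and 1.17 (log2 change -2.50). In each the day 5 libraries lay far below the fed ones. *pip*, a sulfotransferase that ventral follicle cells use to set the dorsoventral axis, went from 2.47 and 2.36 to 0.249 and 0.153 (log2 change -3.50), and *Sdc*, the proteoglycan syndecan, from 36.5 and 34.4 to 9.8 and 8.68 (log2 change -1.94). *CG5326* went from 15.1 and 13.6 to 1.87 and 2.42 (log2 change -2.74). *CG31869* went from 9.31 and 8.56 to 0.706 and 1.04 (log2 change -3.35), but without the 10% of nuclei with most UMIs the change was -0.46 and was not called. The falls of *Hr4* (-1.70), *Eip74EF* (-1.39), *bond* (-2.74) and *pip* (-2.91) were smaller too in that fit and still passed. That step left 528 of 636 and 556 of 645 fed nuclei of cluster 4 and 150 of 151 and 202 of 202 day 5 nuclei.

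Of 20 tested ecdysone and juvenile hormone genes, 12 fell and 2 rose in cluster 4, with a median of -0.56, where 10.5% and 7.08% of all tested genes did so with a median of -0.12, and 6 fell without either fed library. The enzymes of ecdysone synthesis that fell were *sad* (-2.12), *spo* (-1.57), *shd* (-2.38) and *phm* (-2.03, adjusted p = 0.0484). Only *sad* among these 4 held with every library left out in turn, and the highest adjusted p was 0.0845 for *spo*, 0.133 for *shd* and 0.29 for *phm*. *Cyp18a1*, which inactivates ecdysone, rose (0.90), and so did *ftz-f1*, a nuclear receptor that acts in follicle maturation (1.42). *EcR*, the ecdysone receptor, fell by 0.32 on the log2 scale.

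**Figure D2:**
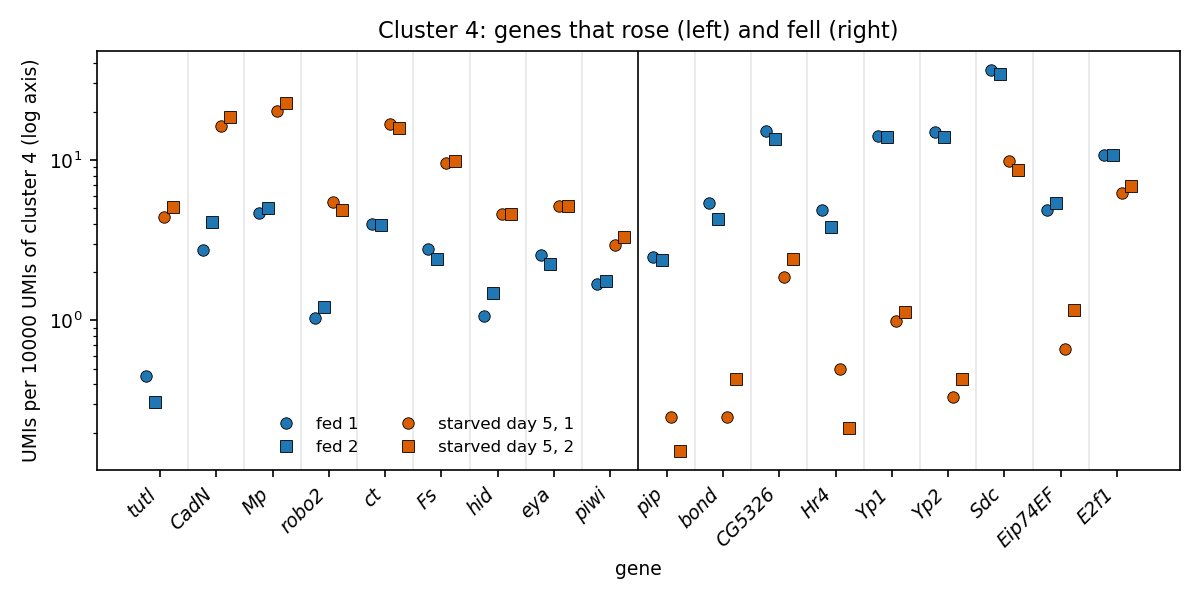
Levels of named genes in cluster 4 (UMIs per 10000, log axis), 1 point per library, fed and day 5. *tutl*, *CadN*, *Mp* and *ct* were higher in both day 5 libraries than in either fed one, and *Hr4*, *bond* and *Sdc* lower.

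Cluster 5 changed in 1229 of 6675 tested genes (18.4%), 424 upward and 805 downward, or 503 and 591 genes without fed replicate 1 or 2. Its nuclei had much the same size in all libraries, with medians of 1374.5 and 1343.5 UMIs in the fed and 1375 and 1336 in the day 5 libraries. *Fs* rose here as well, from 4.09 and 4.33 to 11.5 and 11.6 (log2 change 1.46 ± 0.08, adjusted p = 1.22e-07). *Ilp6*, an insulin-like peptide known to be made in stages that do not feed, went from 1.08 and 0.839 to 2.99 and 3.12 (log2 change 1.68 ± 0.16, adjusted p = 1.80e-05). *hid* went from 1.91 and 2.59 to 4.54 and 4.62 (log2 change 1.04 ± 0.14, adjusted p = 2.40e-04). For all 3 genes the libraries of the groups lay apart. *bmm*, the triglyceride lipase Brummer (1.94), *Glut1*, a sugar transporter (2.11), *Cyp18a1* (1.27) and *tj*, a transcription factor of early follicle cells (0.79), rose too. *CG31869* went from 0.756 and 0.384 to 4.98 and 4.46 (log2 change 3.12).

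*Dl*, *stg* and *CycB* fell in cluster 5. *Dl*, the ligand Delta, went from 13.2 and 12.9 to 7.03 and 8.94 (log2 change -0.72 ± 0.10, adjusted p = 2.59e-04). *stg* went from 15.1 and 16.3 to 10.1 and 10.2 (log2 change -0.63 ± 0.06, adjusted p = 3.10e-05). *CycB*, the mitotic cyclin B, fell by 1.25 on the log2 scale. Of 34 tested genes of the list cell cycle and endocycle 10 fell and 1 rose (*Myc*), with a median of -0.50 against -0.18 over all tested genes. It was 2 and 3 that fell without fed replicate 1 or 2. The other 8 that fell were *CycD*, *dup*, *PCNA*, *Orc1*, *RnrL*, *dap*, *Ts* and *His2Av*. Most of these did not hold when 1 library was left out: the highest adjusted p was 0.142 for *PCNA*, 0.321 for *Orc1*, 0.197 for *RnrL*, 0.214 for *CycD*, 0.284 for *dap*, 0.207 for *Ts* and 0.168 for *His2Av*. *peb*, which encodes Hindsight, a factor that Notch switches on, fell by 1.00, and *E(spl)m3-HLH* by 1.07 (highest adjusted p = 0.184 with a library left out). *N* itself fell by 0.22, with a highest adjusted p of 0.0759, and by 0.04 (not called) with libraries scaled by the median of gene ratios. *ct* rose slightly, from 48.2 and 47.8 to 62.9 and 60.2 (log2 change 0.36 ± 0.04, adjusted p = 6.31e-05). Of all tested genes in cluster 5, 6.35% rose and 12.1% fell. Of 27 tested genes of follicle cell signalling and fate 8 rose (*ct*, *br*, *tj*, *Socs36E*, *sty*, *tkv*, *bun* and *shg*) and 4 fell (*N*, *Dl*, *peb* and *mirr*), or 4 and 2 without fed replicate 1 and 5 and 4 without fed replicate 2.

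Cluster 14 changed in 467 of 3455 tested genes (13.5%), 200 upward and 267 downward, or 265 and 209 genes without fed replicate 1 or 2. Its median nucleus went from 3697 and 3782.5 UMIs to 1983 and 2038.5. *sosie*, which encodes a transmembrane protein needed in oogenesis, went from 4.78 and 2.94 to 25.6 and 33.9 (log2 change 2.97 ± 0.21, adjusted p = 5.16e-06). *Mp* went from 17.4 and 19.7 to 52.5 and 55.8 (log2 change 1.54 ± 0.12, adjusted p = 9.71e-06). *Fs* rose by 2.72, *ct* by 1.57, *foxo*, the transcription factor that insulin holds back, by 1.11, and *fng*, a sugar transferase that modifies Notch, by 1.56. The groups lay apart in each of these. *hid* was at 17.1 and 21.1 in the fed and 30.3 and 27.9 in the day 5 libraries (log2 change 0.61 ± 0.14, adjusted p = 0.0107), and its call was lost without 1 library (highest adjusted p = 0.0865), as were those for *N* (0.207), *Socs36E* (0.0608) and *dome*, the JAK/STAT receptor (0.147).

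The genes that fell in cluster 14 included *sim*, the midline transcription factor Single-minded, from 8.55 and 13.1 to 0.983 and 1.74 (log2 change -2.99 ± 0.27, adjusted p = 2.89e-05), and *Sdc*, from 58.4 and 50.4 to 11.9 and 13.5 (log2 change -2.09 ± 0.12, adjusted p = 3.32e-06). *CG13003* had a log2 change of -4.28, which was -5.12 without day 5 replicate 1 and -3.45 without day 5 replicate 2. *CG31808* (-5.37) and *CG18622* (-4.43) fell further. *Hr4* fell by 2.58, *Egfr*, the receptor that patterns the follicle layer, by 0.93, and *drpr*, the engulfment receptor Draper, by 0.96. Of all tested genes in cluster 14, 5.79% rose and 7.73% fell. Of 25 tested genes of follicle cell signalling and fate, 6 rose (*N*, *ct*, *peb*, *Fas3*, *dome* and *Socs36E*) and *Egfr* fell, with a median of 0.41 against -0.07 over all tested genes. On the mean of the deposited values it was 3 higher and 6 lower, and without fed replicate 2 the counts were 3 and 1. *Lsd-1*, a perilipin of lipid droplets, was at 1.29 and 0.702 in the fed and at 0 in both day 5 libraries.

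Genes moved in opposite directions in clusters 4 and 5, but the test of the difference itself did not separate them. Of 551 genes past the threshold in both clusters, 58 had opposite signs, 24 higher in 4 and lower in 5 and 34 the reverse. The within-library ratio of the level in cluster 4 to that in cluster 5, tested in the same way, gave 0 of 6551 genes (0%) in limma, with 1105 at an unadjusted p under 0.05, while on the mean of the deposited values it gave 1131 and without day 5 replicate 1 or 2 it gave 236 or 453. The smallest adjusted p was 0.0655, shared by *CG31869* (difference -6.46 ± 0.40), *tutl* (2.87), *Mp* (2.35) and *Sdc* (-1.94). For *stg* the difference was 2.15 (adjusted p = 0.0688), for *CadN* 2.36 (0.0948), for *InR*, the insulin receptor, -1.01 (0.136), for *EcR* -0.84 (0.143) and for *N* 0.68 (0.296). Cluster by cluster *InR* fell in 4 (-0.44) and rose in 5 (0.56), and so did *EcR* (-0.32 and 0.52).

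**Figure D3:**
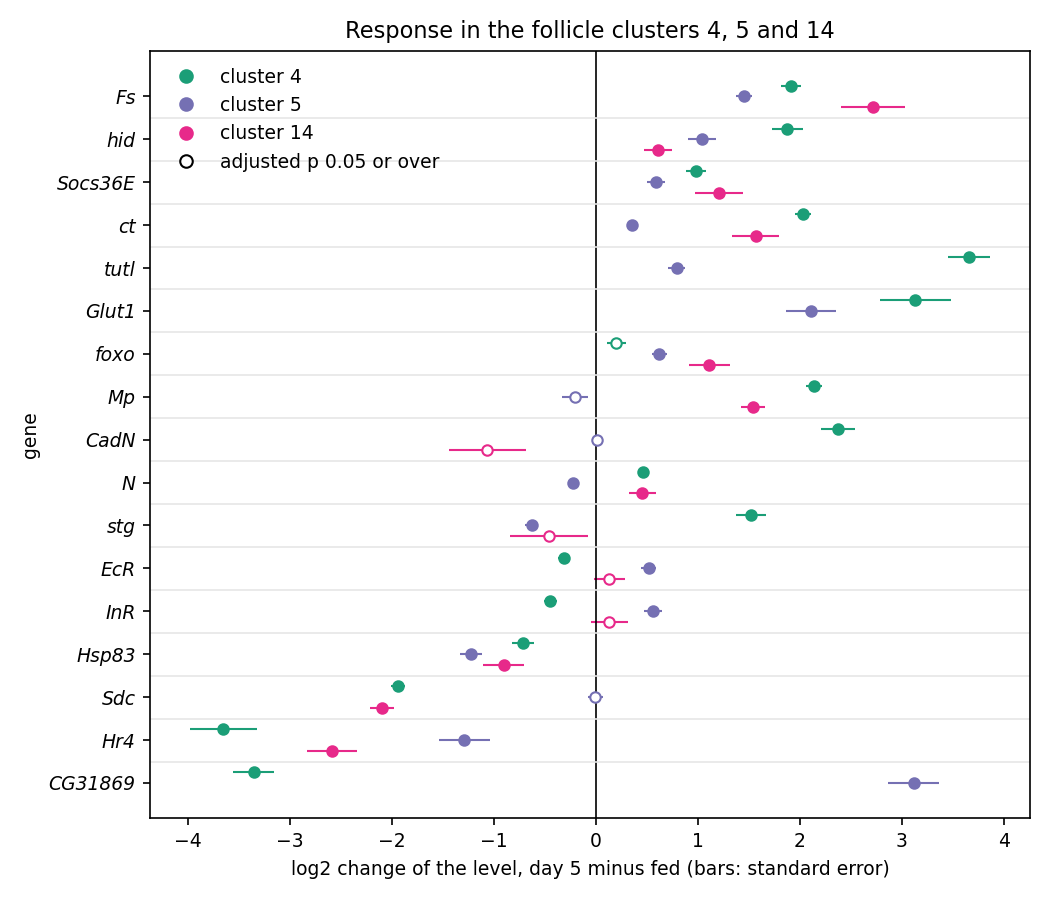
Log2 change from fed to day 5 (± SE) of 17 genes in the follicle clusters 4, 5 and 14, with filled points for genes past the threshold. *Fs*, *hid* and *ct* were past it upward in all 3 clusters, while *stg*, *EcR*, *InR* and *N* had opposite signs in clusters 4 and 5.

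In insulin and TOR signalling, 6 of 24 tested genes rose in cluster 5 and 1 fell, 3 rose and 4 fell in cluster 4, and 1 of 19 rose in cluster 14. Over all tested genes 6.35% rose in cluster 5, 7.08% in cluster 4 and 5.79% in cluster 14. Those of cluster 5 were *InR*, *foxo* (log2 change 0.62), *S6k*, *Iml1*, *SNF4Agamma* and *REPTOR-BP*, and *ImpL2*, which binds insulin-like peptides, fell by 2.57 (highest adjusted p = 0.0644 with a library left out). In cluster 4 *Thor*, the translation inhibitor 4E-BP, had a log2 change of 0.81, not called in every fit with a library left out (highest adjusted p = 0.223). In lipid and fasting metabolism, cluster 5 had 6 of 19 genes up and 4 down and cluster 4 had 4 of 20 up and 5 down. Of these calls 2 in cluster 5 and 2 in cluster 4 were in genes at least as high there as over all nuclei. Over all tested genes 12.1% fell in cluster 5 and 10.5% in cluster 4. *bmm* was past the threshold upward in clusters 4 and 5 and downward in cluster 14 (-1.21). Only the call in cluster 5 held with each library left out (highest adjusted p = 0.225 in cluster 4 and 0.0864 in cluster 14), and the difference between clusters was not tested.

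More heat shock and stress genes fell than rose in the follicle clusters, but the one with most UMIs rose in clusters 4 and 5. In cluster 5, 8 of 17 tested genes fell and 3 rose, with a median of -0.71, in cluster 4 it was 7 of 16 down and 1 up, and in cluster 14, 4 of 16 down, where 12.1%, 10.5% and 7.73% of all tested genes fell. Without fed replicate 1 or 2 it was 3 down in cluster 4 and 1 in cluster 14. *lncRNA:Hsromega*, a stress-responsive noncoding RNA of the nucleus, went from 68.7 and 74.9 to 148 and 139 in cluster 5 (log2 change 1.00 ± 0.05, adjusted p = 5.91e-08). It rose in cluster 4 too, from 84.8 and 83.1 to 134 and 126 (log2 change 0.63 ± 0.04, adjusted p = 2.15e-05), and fell in cluster 14 (log2 change -0.78 ± 0.12, adjusted p = 0.00102). The summed level of the list, most of it from this gene, was at 109, 114, 176 and 165 in cluster 5, at 129, 126, 165 and 156 in cluster 4 and at 153, 168, 99.3 and 119 in cluster 14. *Hsp83*, the Hsp90 chaperone, went from 8.08 and 7.45 to 3.67 and 2.99 in cluster 5 (log2 change -1.22 ± 0.11, adjusted p = 7.44e-06) and from 7.28 and 7.24 to 4.11 and 4.72 in cluster 4 (log2 change -0.72 ± 0.11, adjusted p = 0.00255). *Hsp26* and *Hsp27*, small heat shock proteins that the fed ovary is known to make, fell in cluster 5 by 2.11 and 1.56. Autophagy genes gave few calls. In cluster 4, 0 of 23 tested genes passed in limma, where 17.6% of all genes did and 2 of the 23 had an unadjusted p under 0.05, and 1 of 23, *Atg13*, rose in cluster 5 (0.81, highest adjusted p = 0.125 with a library left out). Cell death and engulfment genes gave 2 rises and 2 falls of 21 tested in cluster 4 and 1 rise of 21, *hid*, in cluster 5. These counts were near the shares over all tested genes, of which 7.08% rose and 10.5% fell in cluster 4 and 6.35% rose in cluster 5.

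Most cytosolic ribosomal protein genes were higher at day 5 in cluster 6 and lower in cluster 5, and the difference between these clusters was not tested. In cluster 6, 77 of 84 rose, where 4.5% of all tested genes rose, and 1, *RpLP0-like*, fell (highest adjusted p = 0.144 with a library left out), with a median log2 change of 0.65. *RpS3* went from 12.8 and 12.6 to 24.8 and 24.4 (log2 change 0.96 ± 0.08, adjusted p = 0.00138). In cluster 5, 50 of 84 fell and none rose, with a median of -0.30. *RpLP2*, of the ribosomal stalk, went from 24 and 23 to 12.8 and 10.3 in cluster 5 (log2 change -1.04 ± 0.08, adjusted p = 3.20e-06). In cluster 7, 11 of 84 fell, *RpLP2* among them, from 21.2 and 20.8 to 4.76 and 6.24 (log2 change -1.93 ± 0.14, adjusted p = 0.00302), and in cluster 11, where 1.2% of all tested genes rose, 8 of 84 did. Cluster 4 gave 8 rises and 6 falls and cluster 14 gave 0 rises and 4 falls of 82. Over all tested genes, 7.08% rose and 10.5% fell in cluster 4, and 5.79% rose and 7.73% fell in cluster 14. In clusters 5 and 7, 12.1% and 0.93% of all tested genes fell. Leaving out fed replicate 1 or 2 left 47 or 37 calls in cluster 6 and 25 or 28 in cluster 5, 1 or 2 in cluster 11, and no call in clusters 7 and 14.

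How the levels were scaled bears on these counts, because more RNA of a few genes lowers the level of the rest. The median log2 change of all tested genes was -0.12 in cluster 4, -0.18 in cluster 5 and -0.29 in cluster 6, and became -0.01, 0.00 and 0.02 when libraries were scaled by the median of gene ratios. The share of called genes that rose went from 40.2% to 52.9% in cluster 4, from 34.5% to 57.6% in cluster 5 and from 28.2% to 68.4% in cluster 6. With that scaling the cytosolic ribosomal proteins counted 81 up and 0 down in cluster 6, and 1 up and 21 down in cluster 5.

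**Figure D4:**
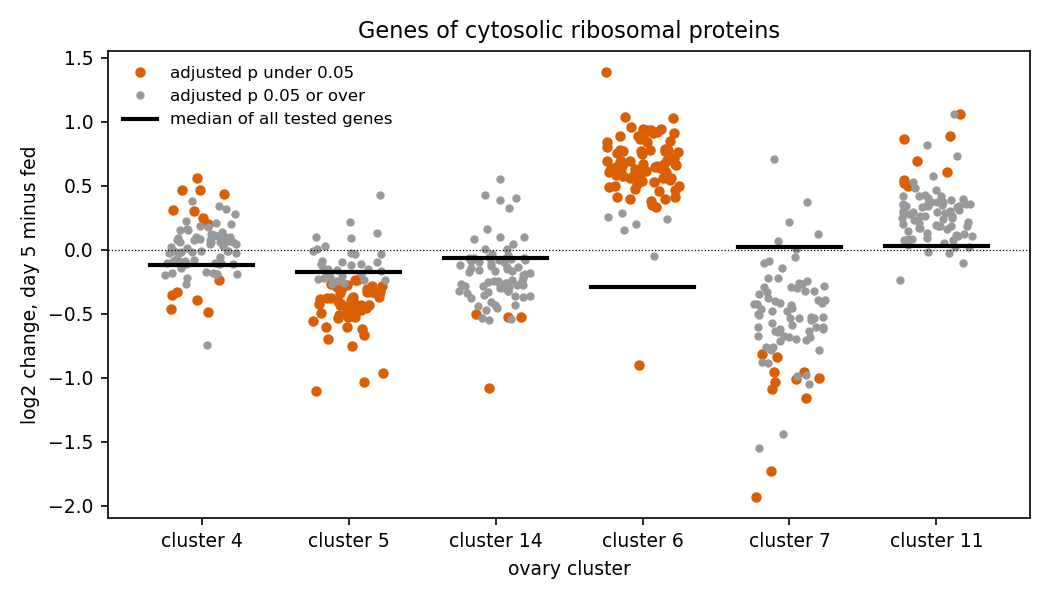
Log2 change from fed to day 5 of each tested cytosolic ribosomal protein gene, 1 point per gene, in the 6 clusters tested. The median was 0.65 in cluster 6 and -0.30 in cluster 5.

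Cluster 6 changed in 1145 of 7177 tested genes (16%), 323 upward and 822 downward, and its count rested on single libraries, since 137 and 110 genes passed without fed replicate 1 or 2, 2739 and 3029 without day 5 replicate 1 or 2, and 95 in every fit. Its median nucleus grew from 914 and 1065 UMIs to 1704 and 2197. The largest rises were in *MtnD* (7.04), *MtnE* (6.43) and *CG34040* (6.43). *MtnA*, a metallothionein, went from 3.69 and 3.65 to 98.5 and 56.8 (log2 change 4.35 ± 0.23, adjusted p = 3.64e-04). *Amy-p*, a digestive amylase of the gut, went from 0.762 and 0.927 to 16.4 and 12.4 (log2 change 4.08 ± 0.30, adjusted p = 0.00123). The 4 gut markers summed to 12.5 and 12.4 in the fed and 54.3 and 23.5 in the day 5 libraries of cluster 6. *Amy-p*, itself 1 of these 4, was the only 1 of them called. The 6 muscle markers summed to 25.6, 28.2, 45.5 and 34.6. Other marker lists were lower at day 5. The 4 fat body markers summed to 9.42, 13.3, 4.26 and 6.67, and the 10 follicle markers went from 22.8 and 17.7 to 5.67 and 6.96. Outside the ovary the follicle markers fell as well, from 42 and 40.2 to 16.7 and 17.5. In cluster 6 the hemocyte, neuron and oenocyte markers summed lower too.

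The nuclei of cluster 6 were therefore divided by their own germline markers, a step added after these values were seen. With 20 or more UMIs of the 10 germline markers per 10000 UMIs of the nucleus, 308 of 555 and 288 of 519 fed nuclei and 27 of 74 and 28 of 75 day 5 nuclei counted as marked. In the marked nuclei the gut markers summed to 7.72, 6.58, 3.02 and 2.14, and in the others to 22.4, 25.1, 93.9 and 39.5. *Amy-p* was at 0.579, 0.382, 0.312 and 0.338 in the marked nuclei (log2 change -0.33, adjusted p = 0.622), against 1.14, 2.11, 28.8 and 21.4 in the others. *MtnA* rose in the marked nuclei, from 1.91 and 1.87 to 20.1 and 11.8 (log2 change 3.03, adjusted p = 0.00816), with 7.33, 7.51, 159 and 90.3 in the others. In the marked nuclei 412 of 6405 genes passed, 138 upward and 274 downward, and 277 of them had passed in the same direction over the whole cluster.

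The changes of cluster 6 that held in the marked nuclei included both ribosomal proteins and germline regulators. Of the cytosolic ribosomal proteins, 72 rose in the marked nuclei and none fell, with a median of 0.75, and *RpS3* had a log2 change of 0.91 (adjusted p = 0.0108). *me31B*, an RNA helicase that keeps maternal RNA silent, went from 15.1 and 15.8 to 6.98 and 6.77 over the cluster (log2 change -1.16 ± 0.08, adjusted p = 0.00101) and had a log2 change of -0.96 in the marked nuclei (adjusted p = 0.0108). *plu*, which acts in the cell cycles of the early embryo, fell by 1.5 over the cluster and by 1.24 in the marked nuclei (adjusted p = 0.0155). *vas*, the Vasa helicase of germ cells, fell by 1.19 over the cluster, but in the marked nuclei its change was -0.90 with an adjusted p of 0.12. Nuclei were marked partly by their *vas* RNA, so that value is not independent of the choice. *mei-P26*, a translation regulator of germ cells, likewise had -1.09 over the cluster and -0.87 in the marked nuclei (adjusted p = 0.086). Without 1 library the calls over the cluster were lost for *vas* (highest adjusted p = 0.197) and *mei-P26* (0.0807). *osk*, which directs germ plasm, was at 6.01 and 4.21 in the fed and 6.93 and 15.9 in the day 5 libraries and did not pass. Its day 5 libraries differed more from each other than the lower of them from the fed ones, and without day 5 replicate 1 the gene was called (log2 change 1.66, adjusted p = 0.00538).

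**Figure D5:**
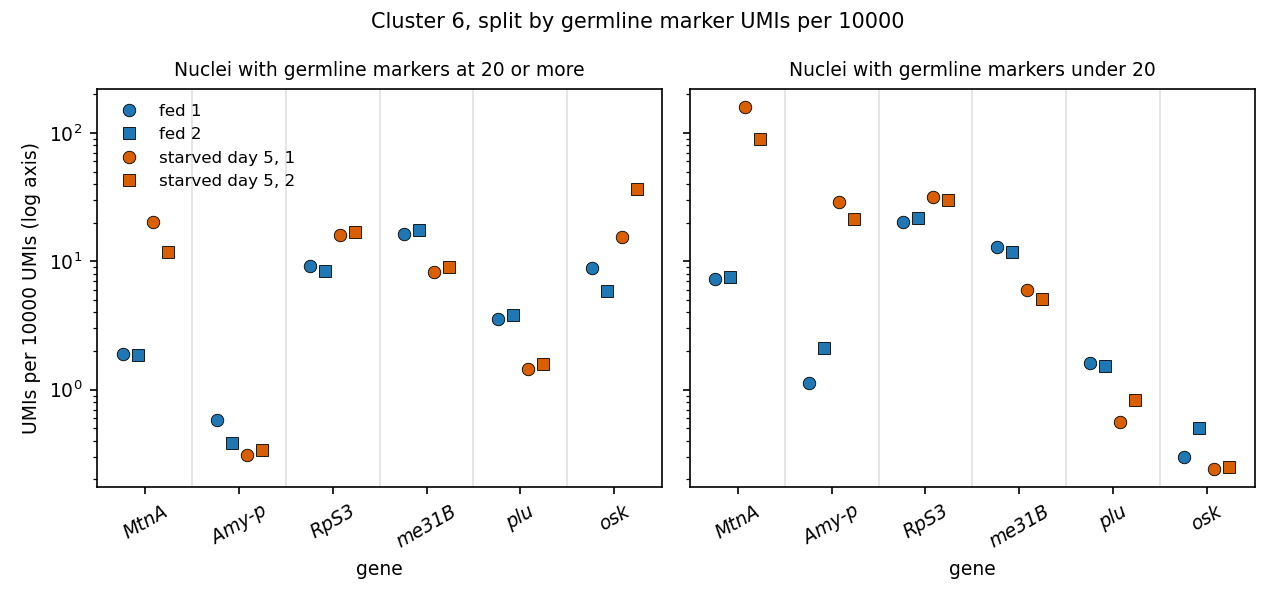
Levels in cluster 6 (UMIs per 10000), 1 point per library, apart for nuclei with germline marker RNA and for the other nuclei. *Amy-p* was at 28.8 and 21.4 in the other nuclei at day 5 and at 0.312 and 0.338 in the marked ones, while *MtnA* was higher at day 5 in both. *osk*, also shown, is among the markers by which the nuclei were divided.

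In cluster 7, 72 of 6774 genes (1.06%) passed, 9 upward and 63 downward. *CycB*, which is 1 of the 10 germline markers, went from 29.7 and 26.4 to 56.3 and 47 (log2 change 0.88 ± 0.13, adjusted p = 0.0412). *RpS2* fell by 1.73 on the log2 scale. None of the 72 held without fed replicate 1 or without fed replicate 2, where limma gave 0 genes with 572 and 549 at an unadjusted p under 0.05, and without day 5 replicate 1 or 2 it gave 2068 or 2480. The day 5 libraries held 38 and 58 nuclei of this cluster.

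In cluster 11, 211 of 7022 genes (3%) passed, 84 upward and 127 downward, 52 and 56 without fed replicate 1 or 2, and 1123 and 683 without day 5 replicate 1 or 2. *CG33978* went from 0.709 and 0.819 to 3.11 and 3.96 (log2 change 2.20 ± 0.20, adjusted p = 9.73e-05). *Grip84*, a subunit of the gamma-tubulin complex that nucleates microtubules, went from 2.25 and 1.81 to 0.397 and 0.403 (log2 change -2.28 ± 0.25, adjusted p = 4.71e-04). Both held with each library left out, and in both the groups lay apart, but *Grip84* did not pass on the mean of the deposited values (adjusted p = 0.486) or without the 10% of nuclei with most UMIs (0.0636). *wisp*, the poly(A) polymerase that lengthens maternal RNA tails, fell by 0.67 (highest adjusted p = 0.274 with a library left out). Of the 18 tested genes of the piRNA pathway, which silences transposons in the germline, 0 passed in limma in cluster 11 and 0 of 18 in cluster 7, with 2 and 4 at an unadjusted p under 0.05. In cluster 4, where 7.08% of all tested genes rose, 3 of 14 did, among them *piwi* (0.86), which somatic follicle cells also use, and *squ* fell (-0.90, highest adjusted p = 0.248 with a library left out).

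A within-library ratio asked whether the response of the clusters annotated as germline (6, 11, 18 and 21 summed) differed from that of the clusters annotated as follicle (4, 5, 14 and 19 summed). The first sum includes clusters 18 and 21, which are led by muscle markers. Of 8053 genes 199 (2.47%) differed past the threshold, 135 with the more positive change in the first sum and 64 in the second. The smallest adjusted p was that of *RhoGEF64C*, with a difference of 4.84 ± 0.16 (adjusted p = 0.005), followed by *CG14187* with 4.96 ± 0.22 (adjusted p = 0.00638). *RhoGEF64C* had a log2 change of 0.44 in the first sum and -4.40 in the second. The count was not stable. It was 0 without fed replicate 1 and 0 without fed replicate 2 in limma, with 989 and 1052 genes at an unadjusted p under 0.05, and 942 or 846 without day 5 replicate 1 or 2. It was also 0 when the tested clusters were weighted equally in place of summed (1567 at an unadjusted p under 0.05), and 41 for clusters 6, 7 and 11 against 4, 5 and 14. The follicle sum lost most of cluster 19 at day 5, so the make-up of the sums changed with starvation.

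Over the 6 clusters tested, 3 genes rose in all 6, *MtnE*, *MtnA* and *CG10383*, and 3 rose in 5 of them, *MtnD*, *tobi* and *Mal-A1*. Metallothioneins bind copper and zinc and are induced by metals, and *tobi* is a glucosidase gene that responds to diet. *MtnA* went from 2.14 and 2.32 to 13 and 14.2 in cluster 4 (log2 change 2.61 ± 0.08, adjusted p = 5.53e-07). These genes were also higher at day 5 outside the ovary, where the mean level of *MtnA* went from 6.7 to 33, that of *MtnE* from 0.43 to 5.1, that of *CG10383* from 0.88 to 12 and that of *tobi* from 0.42 to 1.9. The calls of cluster 7 did not hold without a fed library, and that of *CG10383* did not hold in clusters 4 and 11 (highest adjusted p = 0.0539 and 0.219). The part of free RNA from other tissues in their rise was not tested. Of genes that fell, 21 did so in all 6 clusters and 23 in 5, led by *Vm34Ca*, *Cp15*, *Vm26Aa* and *Cp36*, whose mean levels outside the ovary fell as well, for *Vm34Ca* from 7.3 to 0.0082 and for *Cp36* from 4.9 to 0.0089.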

How the data were processed

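Nuclei of 6 libraries of female *Drosophila* bodies were counted by the submitters with Cell Ranger 6.1.1, joined at equal read depth and viewed in Loupe Browser, and the submitters' processing notes also name Seurat and the BDGP6 genome. How the joined counts became the deposited values, and whether counting used strand, is not given in the sources used here. The deposited table held natural log values of 12925 genes in 43027 nuclei. The values themselves showed a scaling to 10000 UMIs per nucleus and a division by the mean UMIs of each gene over all nuclei. Each nucleus carried its cluster in a deposited annotation.

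Whole UMIs were worked back from these values here. Of the nonzero values 99.99% came within 0.05 of a whole number, and 99.86% were given back within 0.001. UMIs were summed per library and cluster, 0.5 was added, and log2 levels per 10000 UMIs were fitted with limma 3.58.1 (R 4.3.3, trended eBayes) over all 6 libraries in 3 groups, with the contrast day 5 minus fed. The day 2 libraries entered only to estimate the spread. No count model was run on the worked-back UMIs, since the deposited unit is a log value. Genes were tested in clusters with 20 or more nuclei in every library, where 10 or more nuclei held a UMI in at least 2 libraries, which left 6 clusters. P-values were adjusted by Benjamini-Hochberg over the tested genes of a cluster, or over the 10 clusters for shares. An exact two-sided permutation test of 2 libraries against 2 cannot go below p = 0.333, so none was used. Scripts were tested on simulated data. Python 3.11.15, numpy 2.4.6, scipy 1.17.1, pandas 2.3.3 and matplotlib 3.10.9 did the rest.

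Genes named in the text were the 3 that rose and the 3 that fell most per cluster at 1 or more UMIs per 10000, those called in most clusters, and members of the gene lists past the threshold with the largest change, up to 4 per list. The genes of a second rule, called and at least 3 times as high in the cluster as over all nuclei (8 per direction), and the remaining named members of the lists were picked after their values were seen. Members and lists were chosen with earlier results of these data known. Counts at 0 over a group were bounded with 3 UMIs, and 95% intervals and bounds cover counting error only. Of the 12925 symbols 12920 matched the reference annotation, which gave the BDGP6 positions, and genes that overlap a neighbour could not be told from it where counting ignored strand. Groups were taken from the sample titles, since library names carried other day numbers. Alternatives are listed in the closing section.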

Additional observations from a re-analysis of the deposited data

Results flagged for a closer look

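The day 5 response differed between the clusters annotated as germline and as follicle in 199 genes by the test of the difference itself, in a sum that includes the muscle-led clusters 18 and 21. The count was 0 in limma without either fed library (989 and 1052 genes at an unadjusted p under 0.05), with only the 4 libraries compared (1574) and with equal weights of the tested clusters (1567). The genes with the smallest adjusted p had differences of 4.84 (*RhoGEF64C*), 4.96 (*CG14187*) and 4.39 (*Nep2*) on the log2 scale. Each was more positive in the clusters annotated as germline. For *RhoGEF64C* the difference was 1.93 with an adjusted p of 0.148 when the tested clusters were weighted equally.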

How the results depend on the processing

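Leaving out a fed library lowered the count of genes in all 6 clusters and for germline against follicle, and leaving out a day 5 library raised it in clusters 4, 5, 6, 7 and 11. Over the 4 fits that leave out 1 library, the genes past the threshold ranged from 490 to 2939 in cluster 4, from 110 to 3029 in cluster 6, from 0 to 2480 in cluster 7, from 52 to 1123 in cluster 11, from 503 to 1823 in cluster 5, from 209 to 449 in cluster 14, from 0 to 942 for germline against follicle and from 0 to 453 for cluster 4 against 5. For the shares of ovary nuclei, the log2 difference ranged from -2.74 to -1.08 in cluster 19, from -1.48 to -0.72 in cluster 21 and from -0.35 to 0.08 in cluster 11.

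With only the 4 libraries compared the counts were 846 in cluster 4, 452 in cluster 6, 32 in cluster 7, 111 in cluster 11 and 0 for germline against follicle (1574 at an unadjusted p under 0.05 in limma). On the mean of the deposited values they were 3460 in cluster 4, 560 in cluster 6, 1025 in cluster 14, 1931 for germline against follicle and 1131 for cluster 4 against 5. Without the filter on low values they were 1754 in cluster 6, 859 in cluster 7, 123 in cluster 11, 310 in cluster 14 and 10 for germline against follicle. Cluster 6 gave 728 with median-ratio scaling and 686 without the tenth of nuclei with most UMIs, where cluster 11 gave 84, and cluster 7 gave 282 with 2 added to each sum. Among alternatives added after seeing the data, genes at least as high as over all nuclei gave 854 in cluster 4, 729 in cluster 5 and 28 in cluster 7, subtracting the median change gave 725 in cluster 6, nuclei of cluster 6 with germline markers 412, equal weights 0 and clusters 6, 7 and 11 against 4, 5 and 14 gave 41 for germline against follicle. The cause of these moves was not tested.

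The replicate numbers did not pair the libraries, since deviations of same-numbered libraries correlated between -0.034 and 0.045. With the replicate block 20 genes passed for germline against follicle and 1 for cluster 4 against 5, and other counts stayed within 1.5 times.

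Signs turned in few places. As a share of all nuclei cluster 4 turned to -0.50, while cluster 5 (0.02) and cluster 11 (-0.75) kept their signs. In the germline-marked nuclei of cluster 6 *Amy-p* had -0.33 and *alphaTry* -1.56, and the list oocyte patterning and germ plasm gave 3 calls, 2 upward. Members of that list, *osk* and *vas* among them, were also used to mark the nuclei, so its count is not independent of that choice. On the mean of the deposited values *alphaTry* had -0.63 and *RpLP2* -0.21 in cluster 6, the list follicle cell signalling and fate gave 17 calls in cluster 4 and 9 in cluster 14, most downward, and the cytosolic ribosomal proteins 42 in cluster 4, of which 41 downward. The last gave 27 calls without day 5 replicate 2 and 17 without the tenth of nuclei with most UMIs, most downward. Cluster 7 in the day 5 libraries, with 38 and 58 nuclei, set the lowest depth.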
